A study of Mus musculus with 4 samples.

Results

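Dual specificity phosphatases of MAP kinases were followed by all 20 probes that the platform annotation assigns to 9 genes (Dusp1, Dusp2, Dusp4, Dusp5, Dusp6, Dusp7, Dusp10, Dusp16 and Dusp22), among 45281 probes for 19057 named genes and further unnamed targets on the array. The arrays were Illumina bead arrays hybridised with RNA of T cells of effector memory phenotype (CD4+CD62L-CD44+), which had been sorted from mouse spleens and lymph nodes. The 2 dKO arrays came from C57BL/6 mice that were MEKK2 KO and carried Lck-Cre with MEKK3F/- (a floxed and a null allele), so that the floxed allele is deleted where the Lck promoter drives Cre, in the T cell lineage. The 2 WT arrays came from C57BL/6 WT mice, for which the labels name no Cre. Neither age nor sex is given, and whether each array had its own animals is not stated, so the tests measure the spread between arrays, which may be partly technical.

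MAP kinases are switched on when a threonine and a tyrosine in the same loop are phosphorylated, and the dual specificity phosphatases remove both phosphates. Several of the phosphatase genes are themselves induced by the pathway they shut off, which makes them a negative feedback and a readout of MAP kinase output. MEKK2 and MEKK3 (genes Map3k2 and Map3k3) stand at the head of cascades that lead to ERK5, JNK and p38. In T cells, antigen receptor signalling through ERK induces several of these phosphatases.

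Dusp6, a cytoplasmic phosphatase of ERK, had lower values in dKO than in WT cells in both replicate numbers and on both of its probes that exceeded the detection floor on all arrays, 1.99-fold and 2.49-fold on average (n = 2 each). Dusp2, a nuclear phosphatase first found in activated lymphocytes, was lower in dKO in both replicate numbers and on both of its probes, by a smaller ratio. Dusp4 was lower in dKO, mostly in replicate number 2. Dusp1 and Dusp5 did not keep a direction between the replicate numbers, and Dusp22 was not measurable. No phosphatase probe passed the main test over all probes, nor with the replicate number added to its model. Dusp6 probe ILMN_2925711 passed with the replicate number under other processing of the values, as given below.

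Values under an intensity of 16 were set to 16, called the floor below, and a probe was tested if any of the 4 arrays exceeded it. Intensities are given as deposited, for replicate number 1 and then number 2 of each group. Of the 20 probes, 16 were tested, for 8 of the 9 genes, among 14673 tested probes in all. A probe with a single array above the floor (ILMN_2701321 of Dusp6 and ILMN_2754148 of Dusp16) was kept because of that array, so its difference says little. Differences are given as dKO minus WT on the log2 scale after quantile normalization. The test was limma with genotype alone, with Benjamini-Hochberg adjustment over all tested probes and a threshold of 0.05.

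Limma called 0 of 14673 probes higher and 0 lower in dKO (0% each). At an unadjusted p under 0.05 it had 228 higher (1.55%) and 252 lower (1.72%), among them 1 higher and 3 lower phosphatase probes. The dKO array and the WT array of a replicate number share 1 distribution of deposited values, which means that they had been normalized together. Each difference was therefore also taken within each number, and limma was run with the number as a block. The blocked fit called 23 probes higher (0.157%) and 11 lower (0.075%), with 0 phosphatase probes among them, and it rests on 1 residual degree of freedom. At an unadjusted p under 0.05 the blocked fit had 5.69% of all probes higher and 6.09% lower, against 0 and 6 of the 16 phosphatase probes.

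In the labels' cell type, the T cell genes Cd3d, Cd3e, Cd3g, Cd4, Cd28 and Cd44 were above the floor, and Cd5 was below it on all 4 arrays. Cd4 had log2 means of 6.83 in dKO and 6.93 in WT, and was higher in dKO in number 1 and lower in number 2. The CD8 gene Cd8b1 had means of 9.22 in dKO and 9.38 in WT on its brightest probe. How far this reflects the probes was not tested. Map3k3 had a deposited intensity of 204 and 246 in dKO cells, against 311 and 387 in WT cells, and neither Map3k2 probe reached the floor on any array. Where these probes lie relative to the deleted parts is not known here, so they do not check the labels. Xist, made in female cells, was above the floor in WT only, and the Y-linked Eif2s3y and Kdm5d in dKO only, so sex and genotype cannot be told apart in any difference below.

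**Figure D1:**
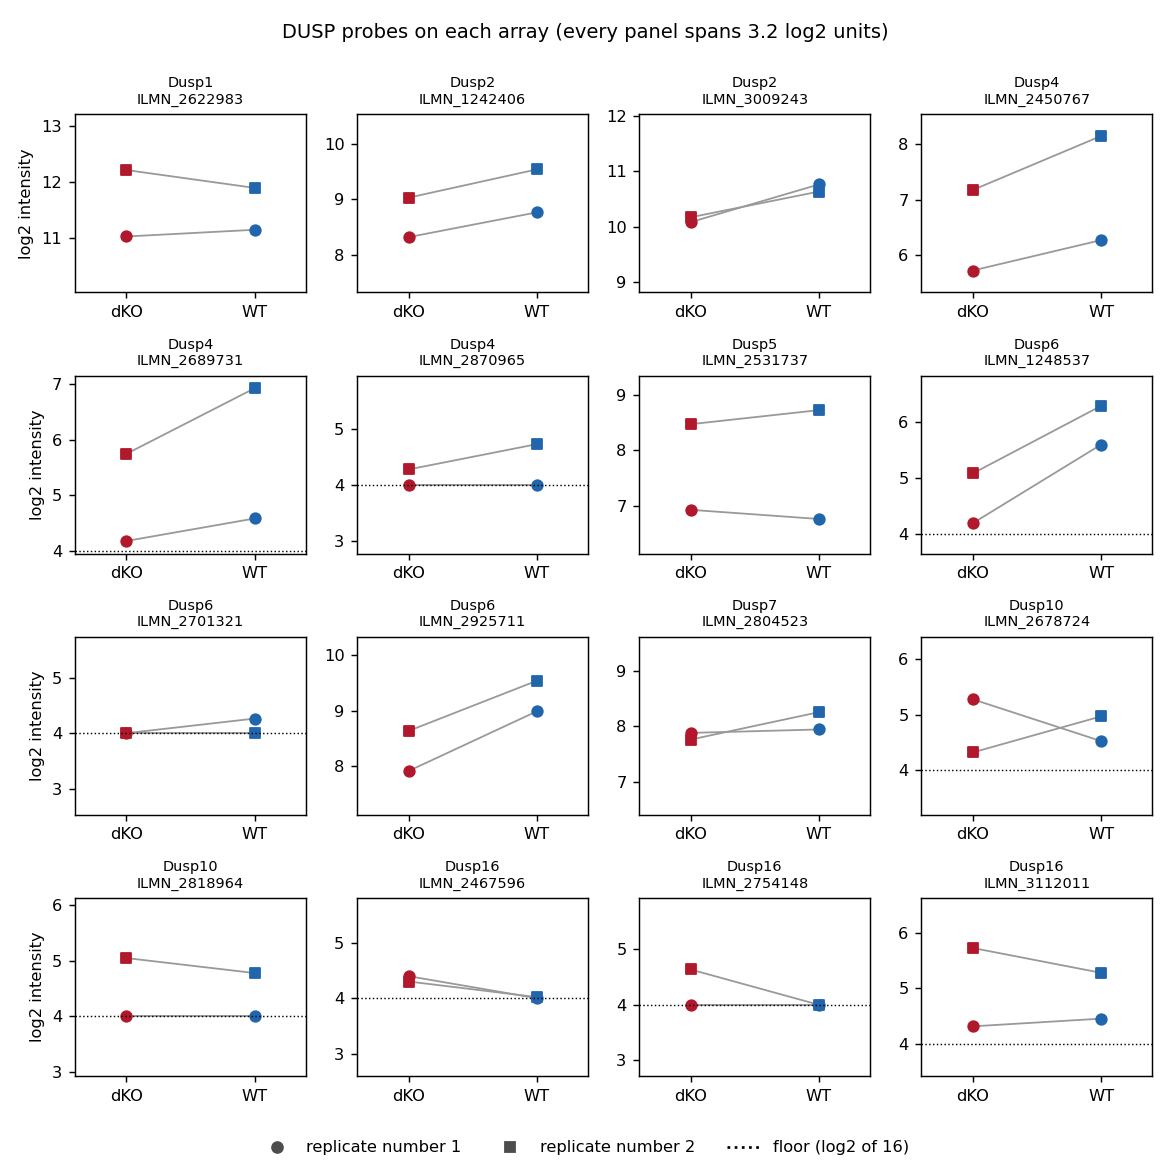
Log2 intensity after quantile normalization (y axis) of the 16 tested phosphatase probes on the dKO arrays (red, left) and the WT arrays (blue, right), with circles for replicate number 1, squares for number 2 and a grey line joining the arrays of a number. The dotted line is the floor, and in the Dusp6 panels of ILMN_1248537 and ILMN_2925711 both lines run upward towards WT.

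Among the cytoplasmic ERK phosphatases, Dusp6 probe ILMN_2925711 had deposited intensities of 213 and 463 in dKO cells, against 435 and 874 in WT cells. Within each replicate number the dKO array was the lower one, at a ratio of 0.489 in number 1 and 0.529 in number 2, while dKO 2 exceeded WT 1 in deposited intensity. After quantile normalization the groups did not overlap, with a dKO mean of 8.28 ± 0.51 and a WT mean of 9.27 ± 0.39 (log2, SD, n = 2 each). The difference was −0.99 (SE 0.34, 95% interval −1.90 to −0.08), short of the threshold in limma (adjusted p = 0.9999) and also with the replicate block (95% interval −1.33 to −0.65, adjusted p = 0.0901). The blocked fit passed for this probe on the deposited values without further normalization (difference −0.97, limma adjusted p = 0.0356) and with log2(value + 16) (−0.95, 0.0417), the second chosen after seeing the data. The direction was the same with any single array left out, between −1.35 and −0.63.

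The second Dusp6 probe above the floor on all arrays was dimmer and had the same direction. ILMN_1248537 had deposited intensities of 17.3 and 36.5 in dKO cells, against 44.5 and 87.2 in WT cells. The groups did not overlap on either scale, and the ratio was 0.389 in number 1 and 0.419 in number 2. This gave a log2 difference of −1.32 (SE 0.47, 95% interval −2.55 to −0.08, limma adjusted p = 0.9999, blocked 0.154), and the value on dKO 1 was close to the floor. The size depended on the setting, at −0.90 with a floor of 32, −0.92 with log2(value + 16), −0.87 without dKO 1 and −1.76 without dKO 2. The third Dusp6 probe, ILMN_2701321, did not reach the floor in dKO cells and exceeded it on WT 1 alone, at 18.2, so no fold is given. Over all tested probes, 0.791% had a lower difference than ILMN_2925711 and 0.348% a lower one than ILMN_1248537.

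Dusp7, a cytoplasmic phosphatase related to Dusp6, had intensities of 208 and 245 in dKO cells, against 217 and 351 in WT cells. The dKO and WT arrays of number 1 were close, with a ratio of 0.960, and those of number 2 were farther apart, with a ratio of 0.700, so that the groups overlapped in deposited intensity and not after quantile normalization. The log2 difference was −0.28 (SE 0.21, 95% interval −0.85 to 0.29) and did not pass in limma (adjusted p = 0.9999). It was −0.12 without WT 2 and −0.43 without WT 1. Whether this differs from the difference of Dusp6 was not tested.

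Among the nuclear phosphatases, Dusp2 probe ILMN_3009243 had intensities of 919 and 1377 in dKO cells, against 1445 and 1902 in WT cells. The dKO arrays were both below both WT arrays. The ratio was 0.636 in number 1 and 0.724 in number 2, and the log2 means were 10.13 ± 0.06 for dKO and 10.70 ± 0.09 for WT (SD, n = 2 each). The difference was −0.57 (SE 0.16, 95% interval −0.995 to −0.15), with an adjusted p of 0.9999 in limma and 0.247 with the replicate block. With any array left out it lay between −0.64 and −0.51.

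The other Dusp2 probe, ILMN_1242406, had intensities of 278 and 610 in dKO cells, against 374 and 871 in WT cells. It was lower in dKO within each number, at ratios of 0.743 and 0.700, but the groups overlapped because both arrays of number 2 stood above both of number 1. The log2 difference was −0.48 (95% interval −1.50 to 0.54, limma adjusted p = 0.9999), and −0.80 to −0.15 was the interval with the replicate block (adjusted p = 0.301). It was −0.12 without dKO 1 and −0.09 without WT 2, and −0.86 at the other end of the range with an array left out. The 2 probes of Dusp2 had the same direction in both numbers, and they measure the same RNA on the same arrays.

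Dusp4, a nuclear phosphatase induced by ERK, had 4 probes, of which 3 were tested. ILMN_2450767 had intensities of 48.4 and 162 in dKO cells, against 70.0 and 324 in WT cells. ILMN_2689731 had 17.2 and 58.9 in dKO cells, against 22.5 and 136 in WT cells. On both probes the dKO array was lower within each number, at ratios of 0.692 and 0.764 in number 1 and of 0.500 and 0.433 in number 2, while the groups overlapped.

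The log2 differences of these Dusp4 probes were −0.76 (95% interval −2.94 to 1.43) and −0.79 (−3.39 to 1.80), both with an adjusted p of 0.9999 in limma. With the replicate block their adjusted p was 0.298 and 0.364. Without WT 2 both had the other sign, at 0.18 and 0.38. The third tested probe, ILMN_2870965, exceeded the floor in number 2 only, at 20.5 on dKO 2 and 28.5 on WT 2, and ILMN_2608995 was below the floor on all arrays.

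Dusp1, an immediate early gene whose nuclear product acts on JNK, p38 and ERK, had intensities of 1704 and 5779.9 in dKO cells, against 1863 and 4599.9 in WT cells. The dKO array was slightly lower in number 1, at a ratio of 0.915, and higher in number 2, at 1.26. The log2 difference was 0.10 (95% interval −1.22 to 1.42, limma adjusted p = 0.9999), and −0.29 to 0.49 with the replicate block. Dusp5, a nuclear phosphatase selective for ERK, had 109 and 409.5 in dKO cells, against 97.7 and 492 in WT cells. Its ratio was 1.12 in number 1 and 0.833 in number 2, and its log2 difference −0.04 had a 95% interval of −2.30 to 2.21 (−0.48 to 0.39 with the replicate block).

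The phosphatases of JNK and p38 were near the floor. Dusp10 probe ILMN_2678724 had intensities of 35.7 and 21.1 in dKO cells, against 21.7 and 33.8 in WT cells, so that dKO was higher in number 1 and lower in number 2. The other Dusp10 probe, ILMN_2818964, exceeded the floor in number 2 only, at 35.7 on dKO 2 and 29.4 on WT 2. Their log2 differences were 0.05 and 0.13, with 95% intervals of −1.02 to 1.12 and −1.08 to 1.35.

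Of the 4 Dusp16 probes 3 were tested, and their differences were all above 0, from 0.15 to 0.34. ILMN_2467596 had 19.9 and 20.8 in dKO cells, against 11.2, below the floor, and 16.4 in WT cells. The groups did not overlap, and the difference of 0.34 (95% interval 0.03 to 0.65, limma adjusted p = 0.9999, blocked 0.435) had one side near the floor. ILMN_3112011, the Dusp16 probe above the floor on all arrays, had 18.9 and 58.0 in dKO cells, against 20.6 and 42.2 in WT cells, and did not keep a direction between the numbers. ILMN_2754148 exceeded the floor on dKO 2 alone, at 26.5, so no fold is given, and in number 1 its dKO array was below its WT array, both under the floor. The fourth probe, ILMN_3037810, was below the floor on all arrays, as were both probes of Dusp22, an atypical phosphatase known to dephosphorylate Lck, with deposited intensities up to 13.01.

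**Figure D2:**
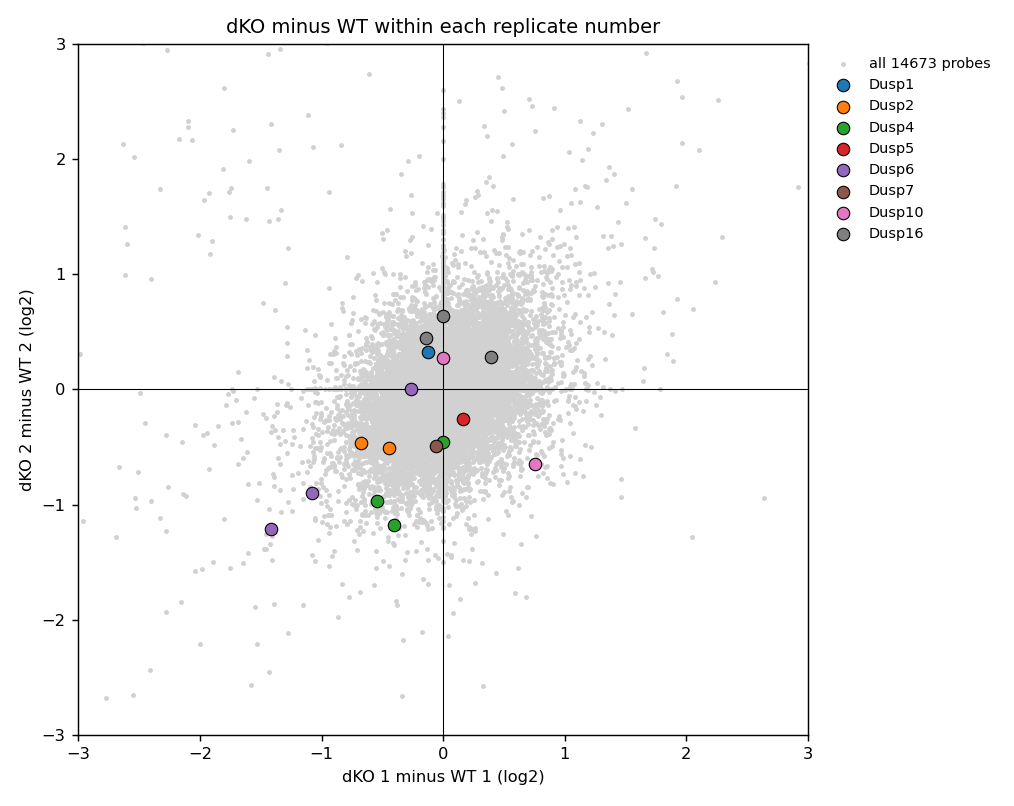
Log2 difference of dKO minus WT in replicate number 1 (x axis) and number 2 (y axis) for the tested phosphatase probes, coloured by gene, over all 14673 tested probes in grey, of which 54 lie outside the axes. The Dusp6 probes ILMN_2925711 and ILMN_1248537 sit at the lower left, at −1.07 and −0.90 and at −1.41 and −1.22, with Dusp2 and Dusp4 between them and the centre.

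Tested phosphatase probes were more often lower than higher in dKO. Among the 16 probes, 7 were lower in dKO in both replicate numbers and 1 higher, against 27.8% lower and 25.7% higher of all probes. The dKO arrays were both below both WT arrays for 4 of the 16 and above them for 1, against 14.2% and 11.9% of all probes. Without further normalization of the deposited values, these counts were 2 and 1. A difference of at least 1.5-fold in both numbers, a rule chosen after the values were seen, was met by 2 probes lower, both of Dusp6, and 0 higher, against 1.55% and 1.66% of all probes. The median log2 difference was −0.18 over the 16 probes and −0.00099 over all. It was −0.13 in number 1 and −0.46 in number 2. The probes of 1 gene share its RNA, so these counts are a description, and without WT 2 the median had the other sign, at 0.23.

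**Figure D3:**
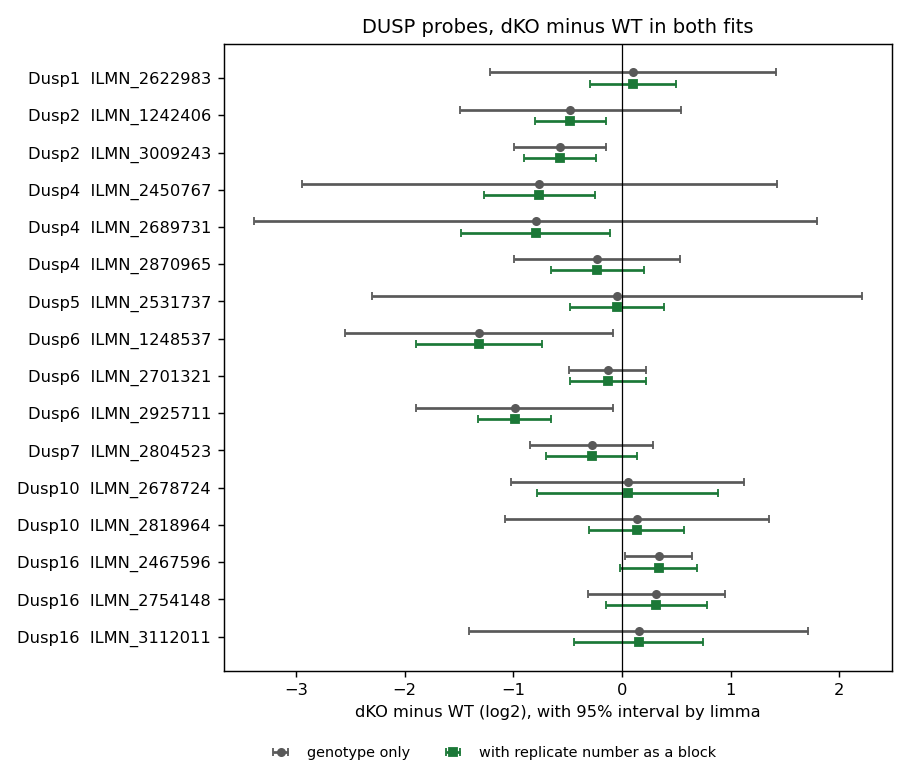
Difference of dKO minus WT (x axis, log2) for each of the 16 tested probes, with 95% intervals by limma for genotype alone (grey circles) and with the replicate number as a block (green squares). The blocked intervals of the Dusp6 probes ILMN_1248537 and ILMN_2925711, both Dusp2 probes and 2 Dusp4 probes lie below 0 before any adjustment, and the blocked interval of Dusp5 runs from −0.48 to 0.39.

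The RNA came from sorted cells in bulk, where fewer cells of a type and less RNA per cell cannot be told apart. Each sum below counts values at or below the floor as 0 and includes genes with any array above it. Of 12 marker genes of CD8 T and NK cells with a probe, 9 were so included. Cd8a, Ncr1 and Gzmb were below the floor on all arrays. The 9 genes summed to 1470.0 and 1837 in dKO cells, against 3011 and 3240.1 in WT cells. This sum had the same direction as Dusp6 and Dusp2 in both numbers. Klre1, Klra3, Klrk1 and Klrb1c exceeded the floor in WT only, so they could only be lower in dKO. Xcl1, Ctsw and Klrd1 were at log2 differences of −2.60, −1.12 and −1.19, and Prf1 at −0.21. Cd8b1 had log2 means of 9.22 in dKO and 9.38 in WT on its brightest probe, a difference of −0.16. Its other tested probes were at −0.52 and −0.64. Myeloid and dendritic cell markers, 12 of 14 above the floor and without Itgam and Itgax, summed to 1122 and 3985 in dKO cells, against 1482 and 1394 in WT cells. The members of this list went both ways: Siglech, of plasmacytoid dendritic cells, was at a log2 difference of −1.75 and Clec9a, of conventional dendritic cells and below the floor in dKO, at −0.66, the direction of Dusp6 and Dusp2 in both numbers, while the macrophage genes Adgre1 and Csf1r were at 1.73 and 0.999. Erythroid markers, 4 of 5 above the floor, summed to 801 and 4209 in dKO cells, against 41.0 and 129 in WT cells. The 3 naive T cell markers with a probe, Igfbp4, Ccr7 and Lef1, summed to 116 and 155 in dKO against 211 and 263 in WT. Their sum too had the direction of Dusp6 and Dusp2 in both numbers. B cell markers, 3 of 5 above the floor and without Ms4a1 and Pax5, summed to 64.2 and 311 in dKO against 131 and 172 in WT. The part of these cells in the phosphatase values was not tested.

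The replicate numbers differed more than the genotypes for several nuclear phosphatases. The arrays of number 2 stood above those of number 1 for Dusp4 probe ILMN_2689731 by 1.57 in dKO and 2.34 in WT (log2, after quantile normalization). For Dusp5 this difference was 1.54 in dKO and 1.96 in WT, and for Dusp1 it was 1.20 in dKO and 0.75 in WT. Averaged over dKO and WT, 0.184% of all probes had a larger difference between the numbers than this Dusp4 probe, 0.3% a larger one than Dusp5 and 3.08% a larger one than Dusp1. Dusp7 and Dusp2 probe ILMN_3009243 differed little between the numbers, by 0.10 and −0.02, while the other Dusp2 probe differed by 0.74 and the Dusp6 probes ILMN_2925711 and ILMN_1248537 by 0.64 and 0.80.

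Genes on the lists of MAP kinase outputs, which for JNK and p38 include Mapkapk2, Mapkapk3 and Atf2, differed between the numbers in both directions. The median difference between the numbers was 0.49 over 14 output genes of the ERK pathway and 0.65 over 12 output genes of JNK and p38, against 0.01 over 8285 genes with 1 probe each. Number 2 was the higher one for 9 of the 14 and 10 of the 12 genes, against 50.9% of all. The labels do not say what the replicate number marks. For Dusp1, Dusp4 and Dusp5 the spread between the arrays of a group was therefore wide, with SDs from 0.53 to 1.66 (n = 2) on probes that exceeded the floor throughout, and a genotype difference of −0.99, as on Dusp6 probe ILMN_2925711, lies inside their intervals in the fit without the block. With the block, the intervals of Dusp1 (−0.29 to 0.49) and Dusp5 (−0.48 to 0.39) do not contain it.

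**Figure D4:**
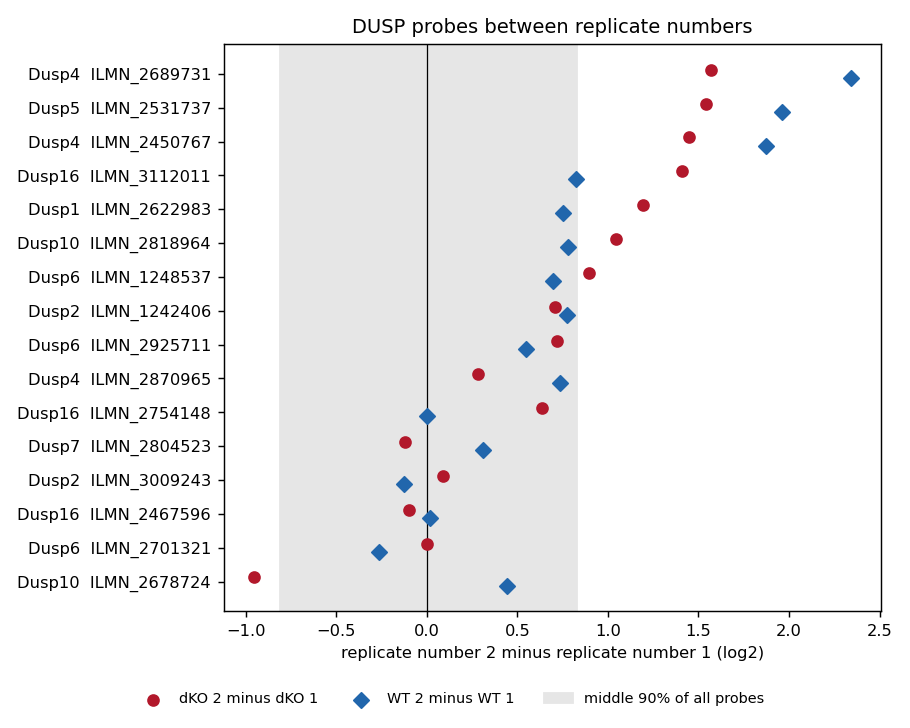
Difference of replicate number 2 minus number 1 (x axis, log2) for each tested phosphatase probe in dKO (red circles) and WT (blue diamonds), with the middle 90% of all probes in grey, from −0.81 to 0.83 for the mean of dKO and WT. Dusp5 and the Dusp4 probes ILMN_2450767 and ILMN_2689731 lie to the right of the grey band in both genotypes, and the third Dusp4 probe lies inside it.

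No upstream sequence was available for Dusp4, which had 2 probes at lower values in dKO in both numbers and also differed between the numbers. Upstream sequences are shown for Dusp6 and Dusp2, likewise with 2 probes each at lower values in dKO in both numbers. They are also shown for Dusp1 and Dusp5, which differed between the numbers and not consistently between genotypes. They are the 250 bases before the RefSeq start site in GRCm38.p6, read 5′ to 3′ on the gene's strand, with capitals for the motifs found on either strand of the CRE (TGACGTCA), its 5-base core (TGACG), the CArG box bound by serum response factor, the AP-1 site (TGANTCA) and the ETS site (CCGGAA). The windows are chr10:99262981-99263230 (plus strand), chr2:127335909-127336158 (plus strand), chr17:26508473-26508722 (minus strand) and chr19:53528895-53529144 (plus strand).
Dusp6: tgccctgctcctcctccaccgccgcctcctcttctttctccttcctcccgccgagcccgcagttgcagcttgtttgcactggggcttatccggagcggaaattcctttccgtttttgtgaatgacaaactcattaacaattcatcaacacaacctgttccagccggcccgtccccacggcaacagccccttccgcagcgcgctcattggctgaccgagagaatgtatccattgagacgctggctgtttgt
Dusp2: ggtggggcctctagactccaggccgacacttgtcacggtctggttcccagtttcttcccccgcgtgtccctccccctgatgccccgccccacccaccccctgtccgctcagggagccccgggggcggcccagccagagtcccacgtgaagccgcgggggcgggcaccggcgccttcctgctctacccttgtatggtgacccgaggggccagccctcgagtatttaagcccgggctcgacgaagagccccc
Dusp1: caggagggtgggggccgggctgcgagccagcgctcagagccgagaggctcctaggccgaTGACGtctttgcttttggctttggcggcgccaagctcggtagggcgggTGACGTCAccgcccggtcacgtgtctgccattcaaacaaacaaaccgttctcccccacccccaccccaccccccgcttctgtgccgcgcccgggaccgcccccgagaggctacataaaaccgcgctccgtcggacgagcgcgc
Dusp5: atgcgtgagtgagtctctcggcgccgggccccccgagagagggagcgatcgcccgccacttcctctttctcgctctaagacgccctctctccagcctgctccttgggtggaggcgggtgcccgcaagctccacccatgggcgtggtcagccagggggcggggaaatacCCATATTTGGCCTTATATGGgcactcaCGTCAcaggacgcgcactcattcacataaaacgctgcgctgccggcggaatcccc

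Of the 8 phosphatase genes with such a window, the CRE was found in Dusp1 alone, 143 to 136 bases before its start, against 1.55% of all 32851 windows. The core of the CRE, which the full site contains, was found in Dusp1, Dusp5 and Dusp16, against 17.8% of windows. Dusp5 held 2 CArG boxes side by side, in the only phosphatase window with one, against 1.47% of windows. The Dusp6 and Dusp2 windows held none of the 5 motifs, and no phosphatase window held the AP-1 site (6.75% of all) or the ETS site (12%). Of the motifs searched without capitals, the GC box (GGGCGG) was in 6 of the 8 windows (32.7% of all), the TATA box (TATAAA) in 0 (12.4%) and the MEF2 site in Dusp16 alone (2.92%). The median GC content was 68.4% over the 8 windows, from 56.4% in Dusp6 to 77.6% in Dusp22, against 52.4% over all windows. These are matches of letters, and a window without a match says nothing of binding by the factor.

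Beside the phosphatases, other genes of the MAP kinase pathways, with 1 probe each, were spread around 0. Limma called 0 of them in either direction (0% of all probes), and so did the fit with the replicate block, where it called 0.157% of all probes higher and 0.075% lower. Of 10 other feedback regulators of ERK, 4 were above the floor, and 3 of them were lower in dKO without overlap (14.2% of all probes). These were Rasal1 and Rasa1, which switch off Ras, at differences of −0.46 and −0.38, and Spred1, an inhibitor of Raf activation, at −0.33, while Errfi1, an inhibitor of the EGF receptor, was at 0.17. Rasal1 and Spred1 were close to the floor of 4, with WT means of 4.92 and 5.04 (log2). Spred1 differed by −0.03 in number 1 and −0.63 in number 2. Whether ERK induces these genes in these cells was not tested. No Sprouty gene with a probe was above the floor. Of 15 other dual specificity phosphatases 6 were above the floor. Dusp28 was at −0.66, and Dusp23 at 0.42 on its brightest probe and −0.35 on its other tested probe (ILMN_3160863). Dusp28 and the brightest Dusp23 probe were also close to the floor, with WT means of 5.14 and 5.11 (log2). The median of the 6 genes was 0.24, against −0.16 over the 8 tested phosphatase genes with 1 probe each. Dusp3 and Dusp14, among the 6, exceeded the floor on dKO 2 alone, so they could only be higher in dKO.

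The output genes of the ERK pathway had differences on both sides of 0. Of 14 above the floor, 6 were higher and 5 lower in dKO in both numbers (25.7% and 27.8% of all probes), and the median difference was −0.05. A difference of at least 1.5-fold in both numbers was met by 3 genes higher, Fos and Ier3 among them, and 0 lower. This was against 1.66% and 1.55% of all probes, and the rule was chosen after the values were seen. Fos, a subunit of AP-1, averaged 10.99 ± 0.32 in dKO cells and 10.17 ± 0.05 in WT cells (log2, SD, n = 2 each), a difference of 0.82 (limma adjusted p = 0.9999, blocked 0.154). Ier3, an immediate early survival gene, differed by 1.84 (limma adjusted p = 0.9999, blocked 0.0519). Myc and the ETS factor gene Etv5 did not reach the floor in dKO cells and were at least 1.36-fold and 1.16-fold lower. Their WT means of 4.44 and 4.21 (log2) were close to the floor of 4. Both genes were tested because of WT arrays alone, so they could only be lower in dKO. They are among the 5 genes counted as lower in both numbers. Of the 12 output genes of JNK and p38, Ddit3, a stress-induced transcription factor, was at a difference of −0.72, and the list's median was −0.11.

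Of the kinases on which the phosphatases act, 4 genes of p38 and JNK kinases were above the floor. Mapk14, Mapk11, Mapk8 and Mapk9, which encode p38 and JNK kinases, differed by −0.11, −0.15, −0.14 and 0.01. The remaining 4 of the 8 MAP kinase genes with a probe were below the floor on all arrays. The 5 MAP2 kinase genes above the floor had a median difference of 0.01.

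**Figure D5:**
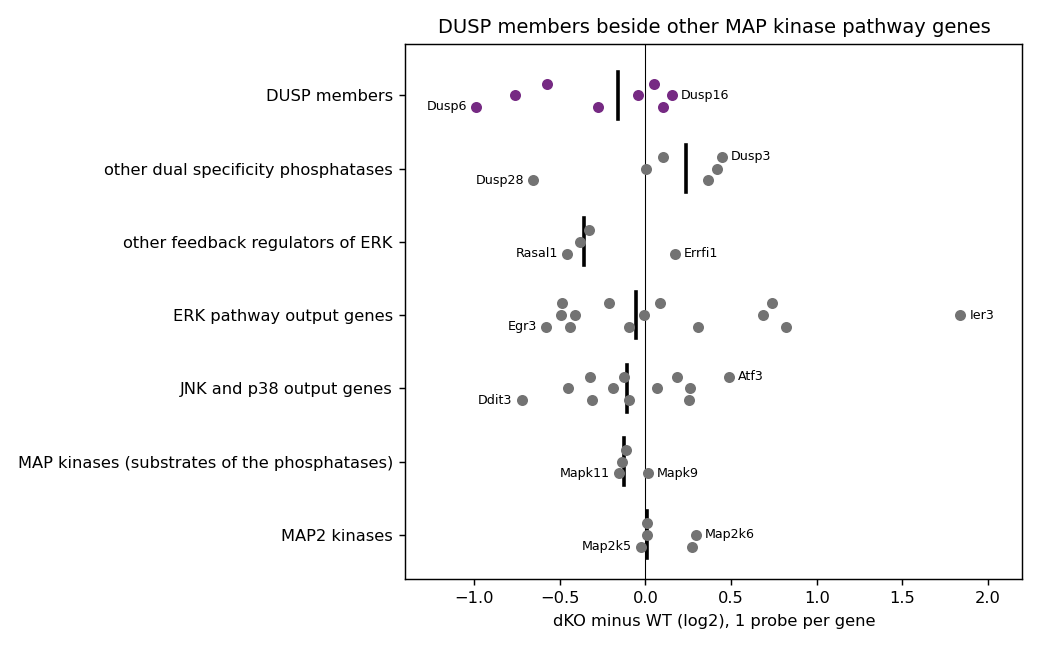
Log2 difference of dKO minus WT (x axis) for the 8 tested phosphatase genes (purple) and the fixed lists of other MAP kinase pathway genes (grey), each gene by its brightest tested probe, with a black bar at each median. Dusp6 is the lowest gene of its row at −0.99, and Ier3 the highest of all at 1.84.

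Among the tested phosphatase probes, the widest range over the 4 arrays was that of Dusp4 probe ILMN_2689731, which spanned 2.75 log2 units. The 3 genes most like it, by the Euclidean distance between centred log2 values over the 4 arrays, were AF067063 (0.20), the clock gene Per1 (0.32) and the mitochondrial ND5 (0.34).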

How the data were processed

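The authors deposited linear probe intensities with background already subtracted, as values below 0 show. Their methods are not given in the sources used here. Sorted values of the dKO and WT arrays agreed within 0.0846 in replicate number 1 and 0.0793 in number 2. A second table was not used, because the names of its 8 columns match no label. Between 12763 and 13218 probes per array exceeded the floor of 16. After the floor, log2 values of the 4 arrays were quantile normalized, and probes above the floor on at least 1 array were fitted with limma 3.58.1 under R 4.3.3 (functions lmFit and eBayes, trended variance, two-sided). The fit was tested on simulated arrays. Gene symbols come from GEO's platform annotation, and 34807 of 34885 probes with 1 symbol matched RefSeq (GRCm38.p6) by Entrez ID. Where neither array of a group exceeded the floor, the fold is a bound against it. The number of arrays limits the precision.

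All phosphatase probes are named, and of each other list up to 4 genes by unadjusted p. The phosphatases and lists were chosen with earlier results of these data known. Alternatives covered the floor, the normalization between arrays, the filter, the probes per gene, the variance model, the replicate block and each array left out. The 2 arrays of a number deviated alike from their group means (correlation 0.519), but the labels name no pairing.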

Additional observations from a re-analysis of the deposited data

How the results depend on the processing

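With genotype alone, limma called 0 probes in 11 alternatives, but 9 with medians equalized and 5 with log2(value + 16); none was a phosphatase probe. With the replicate block it called 34, and 70 on the deposited values without further normalization. Chosen after seeing the data, the block called 42 at floor 8, 39 at floor 32 and 88 with log2(value + 16). A phosphatase probe was called in 2 of these fits, 1 in each, Dusp6 ILMN_2925711: −0.97 (limma adjusted p = 0.0356) with the block on the deposited values, and −0.95 (0.0417) with the block and log2(value + 16). Its adjusted p over all alternatives ran from 0.0356 to 1. Phosphatase probes without overlap were 5, but 3 on the deposited values, with or without the block, 3 with 1 probe per gene, 6 at floor 8, and 4 at floor 32 and over probes above the floor on all 4 arrays; without single arrays they were 7 to 11. Their median difference was −0.18, but −0.48 over the 11 probes above the floor on all 4 arrays, fewer than the 16, and −0.38 over the 12 left at floor 32, and ran from −0.52 to 0.23 with an array left out. Of 267 single-probe values under alternatives, 13 had the other sign, each with 1 array left out. The ranges then were −0.50 to 0.70 (Dusp1), −1.70 to 0.18, −1.97 to 0.38 and −0.60 to 0.14 (Dusp4), −1.02 to 0.94 (Dusp5), −0.43 to 0.53 and −0.39 to 0.66 (Dusp10) and −0.55 to 0.86 (Dusp16 ILMN_3112011). A group with 1 array left was assumed to vary like the other. The cause was not tested in any case. The fit with no filter was not run to a result, because most residual variances were exactly 0.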
